A study of Mus musculus with 32 samples.

Results

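The 9 genes described here encode the MHC class II antigen presentation machinery: H2-Aa, H2-Ab1 and H2-Eb1 (chains of the classical class II molecules), Cd74 (the invariant chain), H2-DMa and H2-DMb1 (the peptide exchanger H2-M), H2-Oa and H2-Ob (H2-O, which restrains H2-M) and Ciita (the class II transactivator). They were chosen by name, and all 9 were measured among the 24646 genes tested. Expression was measured on Affymetrix Mouse Gene 2.1 ST arrays in liver, epididymal white fat (eWAT), inguinal white fat (iWAT) and brown fat (BAT) of male mice on a C57BL/6J background, with 4 Gpr146 knockout mice and 4 wild-type mice and 1 array per mouse and tissue. Both genotypes came from heterozygous parents, were 20 weeks old, had been on high-fat food (HFD) for 3 months and were fasted overnight. The knockout, made with CRISPR, removes Gpr146, an orphan G protein-coupled receptor, from the whole body, so a value in one tissue does not show in which tissue the gene was needed. The titles of the 4 knockout livers name the wild type as well, whereas their genotype, source name and description give the knockout, which was followed here.

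Class II molecules carry peptides taken up from outside the cell to its surface for recognition by CD4+ T cells. The alpha and beta chains assemble in the endoplasmic reticulum with the invariant chain, which steers them to late endosomes, where cathepsins degrade it and H2-M swaps the remaining fragment for a peptide. Dendritic cells, macrophages and B cells express these genes constitutively or after activation, and interferon gamma induces them in many other cells through Ciita. Macrophages that gather in obese fat and the Kupffer cells of the liver are among these cells, and a lymph node lies within the inguinal depot.

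In the RefSeq annotation (GRCm38.p6) the 7 H2 members lie together on chromosome 17 in the order H2-Oa, H2-DMa, H2-DMb1, H2-Ob, H2-Ab1, H2-Aa and H2-Eb1, with H2-DMb2 between H2-DMa and H2-DMb1. Promoter windows, from 250 bases before to 50 bases after a transcription start, were found for 6 of the 9 members. They are shown because class II promoters share an X box and a Y box, to which the RFX and NF-Y complexes bind and on which Ciita is recruited. The stretches below, written 5′ to 3′ on the strand of the gene, hold GNAAC, a core of the X box, followed after 23 to 26 bases by TGATTGG, the Y box, and both are in capitals.
H2-Aa: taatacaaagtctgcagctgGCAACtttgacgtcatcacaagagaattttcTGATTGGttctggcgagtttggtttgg
H2-Eb1: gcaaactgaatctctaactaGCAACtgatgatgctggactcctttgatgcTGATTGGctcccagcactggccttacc
H2-DMb1: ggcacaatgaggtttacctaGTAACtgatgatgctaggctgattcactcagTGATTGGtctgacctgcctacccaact
H2-Oa: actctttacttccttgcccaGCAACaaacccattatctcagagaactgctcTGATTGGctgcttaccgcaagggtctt
H2-Ob: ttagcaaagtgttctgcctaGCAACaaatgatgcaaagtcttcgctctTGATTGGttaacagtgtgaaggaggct
The stretches lie at chr17:34287847-34287924 (minus strand) for H2-Aa, chr17:34305756-34305832 (plus strand) for H2-Eb1, chr17:34153077-34153154 (plus) for H2-DMb1, chr17:34092283-34092360 (plus) for H2-Oa and chr17:34238798-34238872 (plus) for H2-Ob. The Y box began between 45 and 63 bases before the start in these 5 genes. The letters and the spacing were chosen after these promoters had been read, so their presence in the members is a description. Searched on both strands, the pair occurred in 36 of 32851 promoter windows (0.11%), and TGATTGG alone occurred in 7.82%. Among the genes of the related lists below that had a window, only H2-Eb2 held the pair. Some genes of these lists had no window, and the genes named below for a like pattern were not searched as a group. Neither of the 2 windows of H2-DMa held these letters.

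A value here is a deposited log2 expression value per gene and array, so a difference of 1 is a factor of 2. The tables of the 4 tissues had been normalized apart, with median values of 3.02 (liver), 3.16 (eWAT), 3.70 (iWAT) and 2.83 (BAT). No level is compared between genes. Gpr146 was lower in every knockout array than in every wild-type array in each tissue, with log2 fold changes of -1.77 in liver, -1.53 in eWAT, -1.55 in iWAT and -1.16 in BAT. Over all genes, limma called 123 lower and 40 higher in liver, 2632 lower and 1126 higher in eWAT, none in iWAT (smallest adjusted p = 0.221, and 3803 genes with an unadjusted p under 0.05) and 6 lower and 1 higher in BAT. Markers fitted their tissues, with hepatocyte genes at a mean of 11.48 to 11.55 in liver and 2 brown adipocyte genes at 10.99 to 11.43 in BAT. The B cell mean was high in 4 iWAT arrays and skeletal muscle genes were high in 3 BAT arrays, which is taken up with those tissues. In the mean of H2-Aa, H2-Ab1, H2-Eb1 and Cd74, knockout mouse 2 lay above the other knockout mice in every tissue. The calls are therefore given with and without it. Some other members, such as H2-Ob in liver, eWAT and BAT, did not share this.

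**Figure D1:**
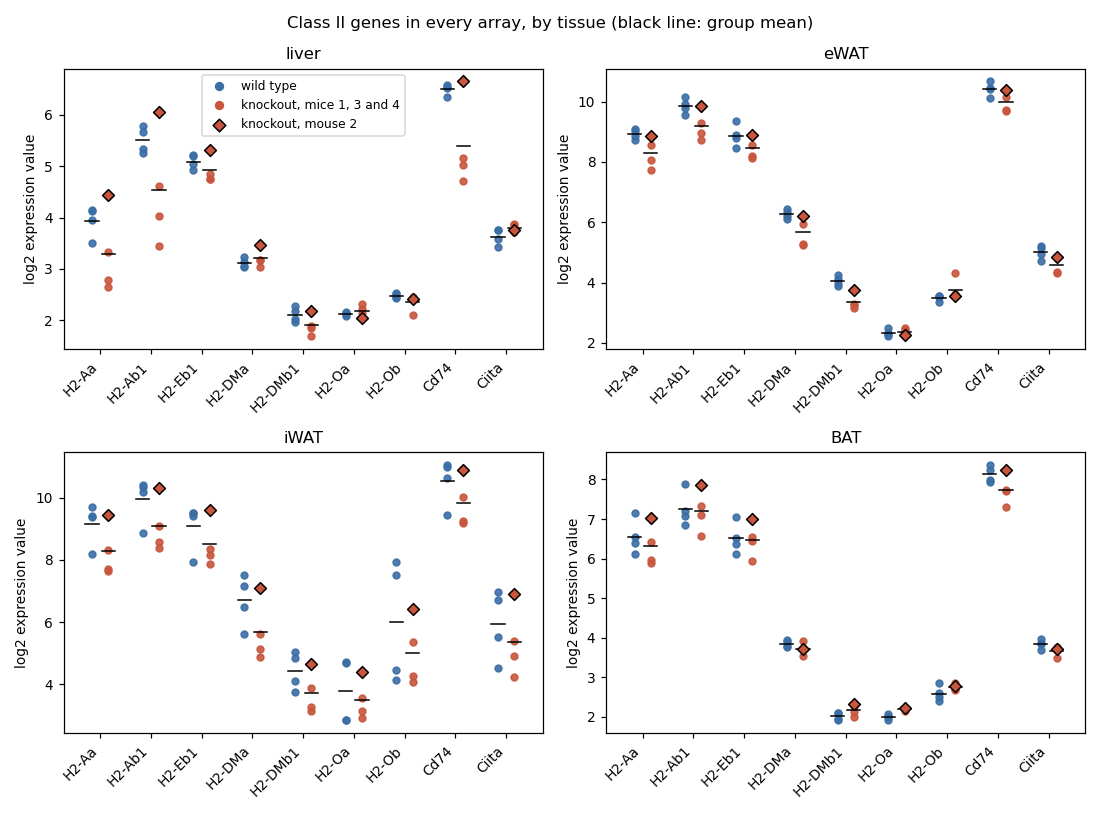
Log2 expression value (y axis) of the 9 class II genes (x axis) in every array, 1 panel per tissue; points are arrays, black lines group means of 4 mice, and diamonds knockout mouse 2. In liver the other 3 knockout mice sit below the wild type for Cd74 (4.71 to 5.16 against 6.35 to 6.58) while mouse 2 is at 6.65.

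In eWAT, H2-DMb1, the beta chain of the peptide exchanger H2-M, fell in the knockout. It measured 4.26, 3.88, 4.10 and 4.00 in wild type and 3.16, 3.77, 3.26 and 3.27 in knockout, so the groups did not overlap. The mean was 4.06 ± 0.16 in wild type and 3.37 ± 0.27 in knockout (SD, n = 4 each). The log2 fold change was thus -0.69 with a standard error of 0.14, or 1.62-fold lower, and its adjusted p was 0.0143 by limma over all genes. The difference of means had the smallest p that 4 mice against 4 allow (two-sided exact permutation test, p = 0.0286). It was the 1 member of 9 called, beside 10.7% of all genes called lower in this tissue, and the 1 member whose groups did not overlap, beside 13% of all genes. By the methods' t-test with the same adjustment it was not called (adjusted p = 0.0704), and over 15 alternatives its adjusted p ran from 0.000469 to 0.0704.

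The other members that point down in eWAT did not pass the test. H2-DMa, the alpha chain of H2-M, measured 6.43, 6.11, 6.33 and 6.21 in wild type and 5.25, 6.21, 5.93 and 5.29 in knockout (log2 fold change -0.60, standard error 0.21, adjusted p = 0.0834). Knockout mouse 2 lay among the wild-type mice and the other 3 below all of them. H2-Ab1, the beta chain of the I-A molecule, measured 9.92, 9.56, 10.14 and 9.78 in wild type and 8.71, 9.87, 9.29 and 8.95 in knockout (-0.64, standard error 0.23, adjusted p = 0.094). H2-Aa, its alpha chain, measured 9.02, 8.74, 9.11 and 8.86 against 7.74, 8.87, 8.55 and 8.06 (-0.62, adjusted p = 0.0906). Both chains showed the same arrangement, with 3 knockout mice below the wild type and mouse 2 within it. Cd74 (-0.43, adjusted p = 0.133), H2-Eb1 (-0.43, adjusted p = 0.213) and Ciita (-0.43, adjusted p = 0.0938) had groups that overlapped more, with 2 knockout mice below the wild type in each.

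H2-O, which is known mainly from B cells, showed another picture in eWAT. H2-Ob measured 3.37 to 3.55 in wild type and 3.61, 3.54, 4.32 and 3.55 in knockout (0.26, adjusted p = 0.332), and H2-Oa, which lay below the table median, 2.21 to 2.50 against 2.27 to 2.49. Knockout mouse 3, with the highest H2-Ob, also had the highest mean of 12 B cell genes (3.96, against 2.80 to 2.96 in the other 7 arrays) and the highest H2-DMb2 (5.43, against 3.25 to 3.86), a second gene for the beta chain of H2-M. Whether B cells account for the H2-Ob value was not tested. H2-DMb1 and H2-DMb2 are close paralogs, and whether their probes share signal was not tested either; H2-DMb2 itself had a log2 fold change of 0.34 (adjusted p = 0.593).

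**Figure D2:**
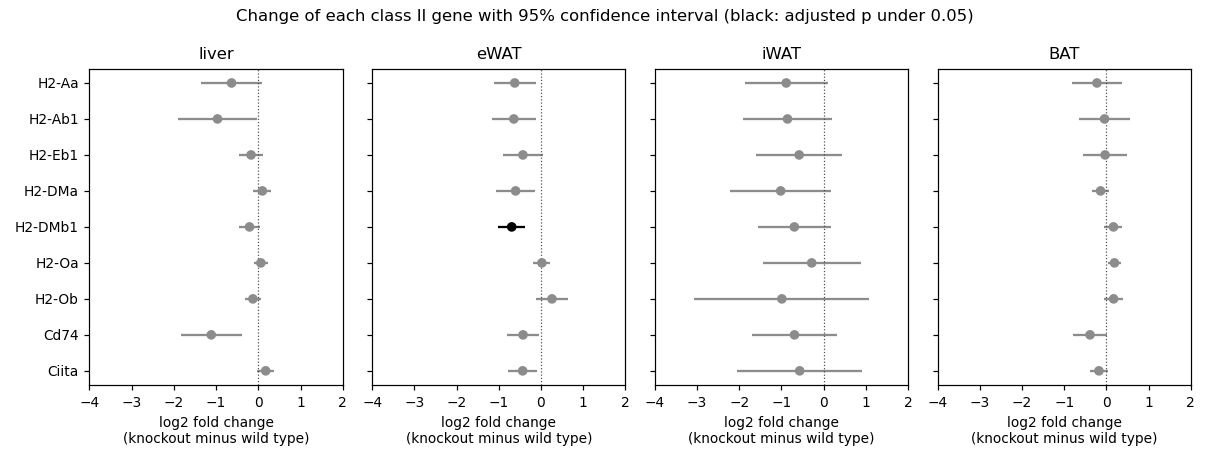
Log2 fold change, knockout minus wild type (x axis), of each class II gene (y axis) with its 95% confidence interval from limma, 1 panel per tissue, 4 mice per genotype; black marks an adjusted p under 0.05. H2-DMb1 in eWAT (-0.69) is the single black interval, and the iWAT intervals are the widest, from -3.07 to 1.09 for H2-Ob.

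Over the 9 members the median log2 fold change in eWAT was -0.43, with 7 of 9 lower, beside 0.03 over all genes. Genes that prepare peptides for class II were set beside them. Of 6 lysosomal processing genes, 5 were called lower and their median was -1.37: Ifi30, a thiol reductase of the lysosome, fell by 2.08, Lgmn (legumain) by 1.66, Ctsl by 1.07, Ctsb by 0.70 and Ctsd by 0.64 on the log2 scale (adjusted p between 0.0168 and 0.0251). Ctss, the cathepsin that trims the invariant chain in many presenting cells, did not pass (-1.70, adjusted p = 0.0622), although its groups did not overlap. Of 8 macrophage genes, 7 were called lower, with a median of -1.84, among them Itgam (-2.49), Adgre1 (-2.34), Cd68 (-2.26), Fcgr1 (-2.11), Csf1r (-1.56), Mrc1 (-1.33) and Cd14 (-1.32). The macrophage mean was 7.98 to 8.22 in wild type, 7.61 in knockout mouse 2 and 5.65 to 6.21 in the other 3. Their part in the class II values was not tested, and in bulk tissue fewer cells of a type and less RNA per cell cannot be told apart.

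Upstream of class II the eWAT picture was mixed. Of 7 genes for factors on class II promoters, Nfya, a subunit of the factor that binds the Y box shown above, was called lower (7.15 ± 0.13 to 6.05 ± 0.29, SD, n = 4 each; -1.10, adjusted p = 0.00674), and Rfx5, Rfxap, Rfxank, Nfyb, Nfyc and Creb1 were not called. Of 8 genes from interferon gamma to Ciita, the receptor chains Ifngr2 (-1.09) and Ifngr1 (-0.58) and the kinase Jak1 (-0.34) fell, while the transcription factor Irf1 rose by 0.52 (adjusted p = 0.0128), beside 4.57% of all genes called higher. Ifng itself was low in both groups (2.19 ± 0.12 and 2.12 ± 0.17, SD, n = 4). The costimulatory ligand Cd80 fell (-1.75, adjusted p = 0.00982) and Cd86, Cd40 and Cd83 were not called.

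Class I presentation and dendritic cell genes were set beside the members. Of 8 class I genes (H2-D1 is not analysed here), none was called lower and Tap2, a subunit of the peptide transporter into the endoplasmic reticulum, rose (0.38, adjusted p = 0.0398). The list median was 0.04, and H2-K1 was at 8.69 ± 0.14 in wild type and 8.71 ± 0.09 in knockout (SD, n = 4). Of 9 dendritic cell genes, Itgax, which macrophages of obese fat also express, fell by 2.69 and Clec10a by 1.05, while Zbtb46, a transcription factor of classical dendritic cells, rose by 0.41 (adjusted p = 0.0383). Flt3, Xcr1, Clec9a, Cd209a, Batf3 and Ccr7 were not called. Among 3 adipocyte genes, Plin1 (0.65) and Adipoq (0.51) rose and Lep (-0.98) fell.

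**Figure D3:**
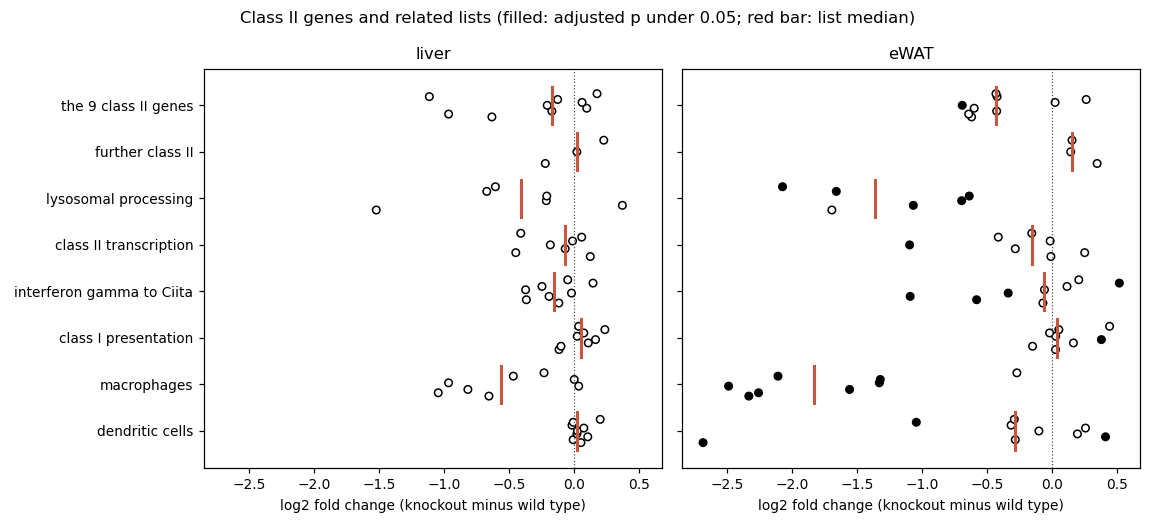
Log2 fold change, knockout minus wild type (x axis), of every gene of the class II list and 7 related lists (y axis) in liver and eWAT, 4 mice per genotype; filled points have an adjusted p under 0.05 and red bars are list medians. In eWAT the macrophage (-1.84) and lysosomal processing (-1.37) medians lie further left than that of the 9 class II genes (-0.43), and the class I median is 0.04.

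In liver, no member was called in either direction, beside 0.499% of all genes called lower, and 2 of 9 had an unadjusted p under 0.05, as had 3271 of all 24646 genes. Cd74, the invariant chain, had the largest difference: 6.58, 6.54, 6.35 and 6.53 in wild type and 4.71, 6.65, 5.02 and 5.16 in knockout (-1.12, standard error 0.33, adjusted p = 0.168). Knockout mouse 2 was above every wild-type liver and the other 3 were below each of them. H2-Ab1 measured 5.67, 5.25, 5.34 and 5.77 in wild type and 3.45, 6.06, 4.03 and 4.62 in knockout (-0.97, standard error 0.43, adjusted p = 0.361). H2-Aa measured 4.14, 3.96, 3.50 and 4.13 against 2.65, 4.43, 2.78 and 3.32 (-0.63, adjusted p = 0.439). In both chains, as in Cd74, mouse 2 had the highest value of all 8 livers and the other 3 knockout livers the lowest.

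The remaining liver members had smaller differences. H2-Eb1 measured 4.92 to 5.21 in wild type and 4.75, 5.31, 4.76 and 4.85 in knockout (-0.17, adjusted p = 0.612), again with mouse 2 at the top. Mice of this background carry a defective gene for the alpha chain that would pair with H2-Eb1, measured as H2-Ea-ps, which lay between 1.64 and 2.29 in all 32 arrays. H2-DMa (0.10), Ciita (0.18), H2-DMb1 (-0.21), H2-Oa (0.06) and H2-Ob (-0.13) had adjusted p between 0.442 and 0.799, and the last 3 lay below the table median. The groups of no member were separate, beside 4.16% of all genes separate and lower in the knockout, and the member median was -0.17 (-0.30 without knockout mouse 2), beside 0.01 over all genes. No gene of the lysosomal, macrophage or Kupffer cell lists was called in liver, although the 5 Kupffer cell genes had a median of -1.18 and unadjusted p under 0.05. The largest differences were those of Vsig4 (-1.74, adjusted p = 0.0546) and Marco (-1.44) among Kupffer cell genes, Ctss (-1.52, adjusted p = 0.0807) and Lgmn (-0.67) among lysosomal genes and Cd68 (-1.05) and Mrc1 (-0.97) among macrophage genes. The Kupffer cell mean was 5.20 to 6.59 in wild type, 5.45 in knockout mouse 2 and 3.92 to 4.49 in the other 3 livers, and its part in the class II values was not tested.

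Knockout mouse 2 was the highest of the 4 knockout mice for 6 of 9 members in liver, 7 in eWAT, 9 in iWAT and 6 in BAT. It was at or above the wild-type mean for 7, 3, 9 and 7 of them. Neither set of counts has a share over all genes beside it. For H2-Aa, H2-Ab1, H2-Eb1 and Cd74 together, its mean difference from the wild-type mean was 0.36 in liver, where the other 3 knockout mice had -1.37, -1.11 and -0.77. The same quantity was -0.01 in eWAT (others -0.94, -0.38 and -0.79), 0.39 in iWAT (others -1.26, -1.41 and -0.73) and 0.42 in BAT (others -0.68, -0.13 and -0.28). In every tissue it therefore lay above the other 3 knockout mice and inside or above the wild-type range. It lay above the others in the means of the 8 macrophage and 6 lysosomal genes too, with macrophage differences of -0.08 in liver (others -0.74 to -0.58) and -0.45 in eWAT (others -2.41 to -1.85). Its Gpr146 was below every wild-type value, at 4.26 in liver, 3.63 in eWAT, 3.82 in iWAT and 4.69 in BAT, against wild-type values of at least 6.17, 5.32, 5.37 and 5.10. The tissues were tied to one mouse through the mouse number in the labels, and the values bear on this link weakly. Over all genes, deviations of same-numbered arrays of 2 tissues from their group means correlated with a median r of 0.03 to 0.08. Of the 8 mice, 3 to 7 correlated best with their own number. That match was sought only among the 4 mice of the same genotype, where some match by chance alone.

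**Figure D4:**
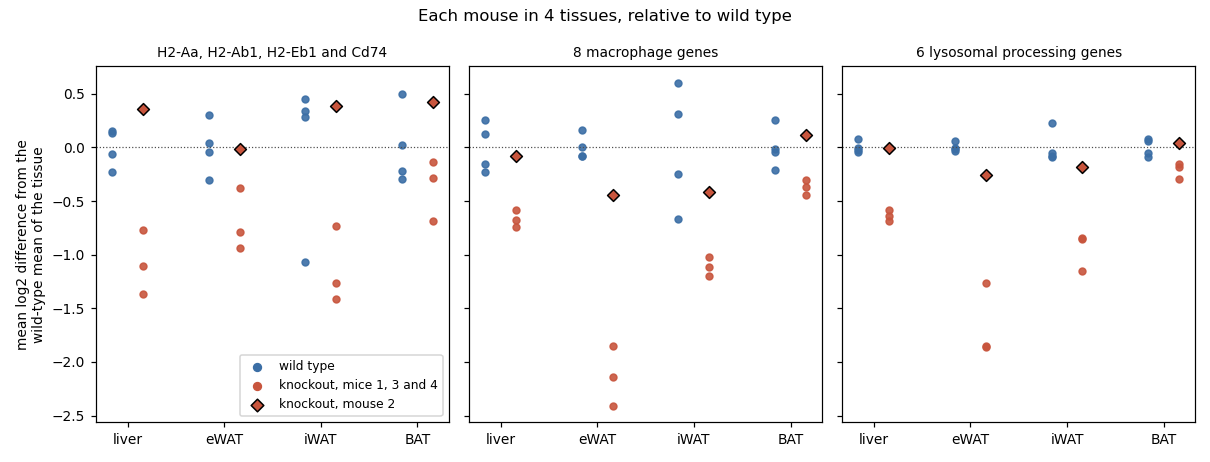
Mean log2 difference from the wild-type mean of the tissue (y axis) in liver, eWAT, iWAT and BAT (x axis), for 4 class II genes, 8 macrophage genes and 6 lysosomal processing genes; each point is 1 mouse and diamonds are knockout mouse 2. In liver this mouse is at 0.36 for the class II genes while the other knockout mice are between -1.37 and -0.77.

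Leaving out knockout mouse 2, which was noticed in these same values, changed the calls in liver and eWAT. In liver 3 members were then called lower, beside 0.982% of all genes: Cd74 (-1.54, standard error 0.11, adjusted p = 0.000242), H2-Ab1 (-1.47, adjusted p = 0.0163) and H2-Aa (-1.01, adjusted p = 0.0321). For 5 of 9 members the 3 knockout values were then below the whole wild-type range, beside 6.79% of all genes. In eWAT 6 members were called lower, beside 14.2% of all genes: H2-DMb1 (adjusted p = 0.000469), H2-Ab1 (0.00516), H2-DMa (0.00904), H2-Aa (0.0108), Cd74 (0.0282) and Ciita (0.0393). The groups of 4 members were then separate, beside 18% of all genes. In iWAT and BAT no member was called without it, beside 0.475% and 0.0122% of all genes called lower. A mouse removed after its values were seen makes the remaining difference larger and the spread smaller, so these calls are no independent support for the direction.

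In iWAT all 9 members were lower in the knockout on average, with a median of -0.69 beside 0.02 over all genes, and none was called, as was 0% of all genes. The median was -1.05 without wild-type mouse 4 and -1.08 without knockout mouse 2, and it ran from -0.76 to -0.50 without any other single mouse. Log2 fold changes ran from -1.02 for H2-DMa to -0.28 for H2-Oa, with adjusted p between 0.358 and 0.789, and no member had an unadjusted p under 0.05. H2-Ab1 measured 10.40, 10.20, 10.33 and 8.85 in wild type and 8.57, 10.31, 8.38 and 9.10 in knockout (-0.86, standard error 0.47). H2-Ob measured 7.93, 7.53, 4.48 and 4.14 in wild type and 4.27, 6.41, 4.08 and 5.35 in knockout (-0.99, standard error 0.92). The groups overlapped for each member, whereas 3.86% of all genes were separate and lower in the knockout. For each member the range within either genotype was wider than the difference between the genotype means.

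The spread in iWAT went with B cell genes. The mean of 12 B cell genes was 7.57, 7.54, 3.42 and 3.20 in wild-type mice 1 to 4 and 3.62, 7.26, 3.50 and 5.47 in knockout mice 1 to 4, and 8 T cell genes were highest in wild-type mice 1 and 2 and knockout mouse 2 (6.38, 6.79 and 6.57). Wild-type mice 1 and 2 and knockout mice 2 and 4, with means of 4 or more, form a class of 2 mice per genotype. The high class exceeded the low class by 2.57 for H2-Ob, 1.70 for Ciita, 1.40 for H2-Oa and 1.32 for H2-DMa, and by 0.85 to 1.11 for H2-Aa, H2-Ab1, H2-Eb1, Cd74 and H2-DMb1, while the median over all genes was -0.05. H2-Oa and H2-Ob were the 2 members whose values did not overlap between the classes. H2-DMb2 (3.94) and H2-Eb2 (2.94), which are no members, differed more than any of the 9. These differences are a description, since the classes were set from the same arrays.

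**Figure D5:**
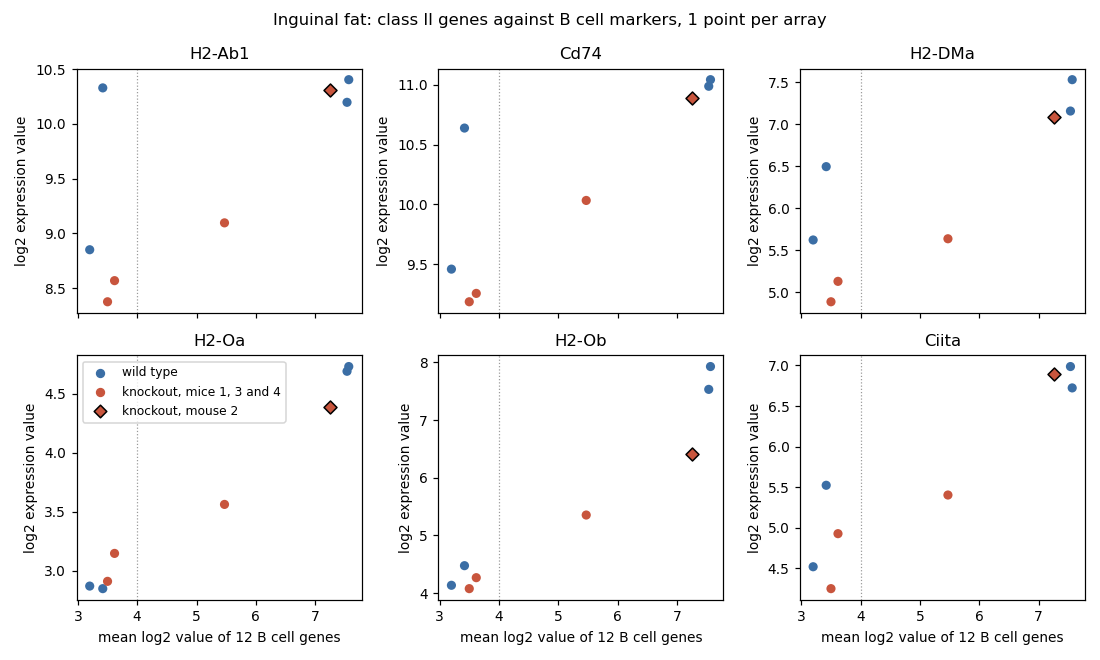
Log2 expression value (y axis) of 6 class II genes against the mean log2 value of 12 B cell genes (x axis) in iWAT, 1 point per array, with the class boundary at 4 dotted and diamonds for knockout mouse 2. H2-Oa and H2-Ob are highest in the 4 arrays right of the boundary, and wild-type mouse 3, with a B cell mean of 3.42, has H2-Ab1 at 10.33 and H2-Ob at 4.48.

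Wild-type mouse 3, of the low class, had H2-Ab1 at 10.33 and H2-Eb1 at 9.50, as in wild-type mice 1 and 2. It lay below those mice in H2-DMa (6.50, against 7.53 and 7.16), H2-DMb1 (4.10, against 5.03 and 4.86), Ciita (5.52, against 6.72 and 6.99), H2-Oa (2.85, against 4.73 and 4.69) and H2-Ob (4.48, against 7.93 and 7.53). Within the low class (wild-type mice 3 and 4, knockout mice 1 and 3), the knockout minus wild-type difference was -1.12 for H2-Aa and H2-Ab1, -1.05 for H2-DMa, -0.83 for Cd74, -0.13 for H2-Ob and 0.17 for H2-Oa. There 8 of 9 members were lower, with a median of -0.71, and none was called, beside 2.88% of all genes called lower. Within the high class all 9 were lower, with a median of -0.68, and 0% of all genes was called. That class is not matched for B cell genes, since knockout mouse 4 had a B cell mean of 5.47, against 7.26 to 7.57 in its other mice. H2-Ob differed by -1.85 and H2-DMb2 by -1.24 there. With the B cell mean as a covariate, the member median was -0.56, with H2-Ob at -0.64, Ciita at -0.34 and H2-Oa at -0.09. No member was called, beside 0.15% of all genes called lower. By limma, 6 of 9 members, all lower, then had an unadjusted p under 0.05. The same held for 6 of 9 with the B cell class as a block, where none was called, beside 0.00811% of all genes called lower. These unadjusted counts have no share over all genes beside them. The macrophage mean in iWAT was 5.95 to 7.22 in wild type, 6.20 in knockout mouse 2 and 5.42 to 5.60 in the other 3, and its part was not tested. Of the related genes none was called in iWAT, and the largest differences were those of Cd68 (-1.41) and Adgre1 (-1.36) among macrophage genes and Ctss (-1.27) and Ifi30 (-1.21) among lysosomal genes.

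In BAT no member was called and the median was -0.04, beside 0.0243% of all genes called lower and a median of 0.00 over all genes. Cd74 had the largest difference, with 7.93, 7.98, 8.36 and 8.24 in wild type and 7.31, 8.23, 7.73 and 7.70 in knockout (-0.39, standard error 0.18, adjusted p = 0.41), and mouse 2 again sat within the wild type. H2-Ab1 measured 6.84, 7.07, 7.88 and 7.21 against 6.56, 7.85, 7.32 and 7.09 (-0.04, 95% confidence interval -0.65 to 0.57). H2-Oa, at a level below the table median, measured 1.91 to 2.08 in wild type and 2.15 to 2.22 in knockout, a separation in the other direction (0.19, adjusted p = 0.303), beside 3.31% of all genes separate and higher. No member was separate and lower, beside 3.92% of all genes. Skeletal muscle genes were high in wild-type mice 2 and 3 and knockout mouse 2 (7.17, 7.80 and 7.93, against 2.96 to 4.12 elsewhere), and without these 3 arrays the member median was -0.13 and none was called.

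The change in eWAT was set against that in the other tissues within each mouse number. For H2-DMb1 the eWAT change was lower than that in BAT by 0.86 (standard error 0.13, adjusted p = 0.00918), from -0.69 in eWAT and 0.17 in BAT. It was the 1 member called, beside 6.93% of all genes called in either direction. In BAT H2-DMb1 lay below the table median (wild-type mean 2.01, against 4.06 in eWAT), and how far it could fall there was not tested. Against liver, H2-DMa (-0.60 in eWAT, 0.10 in liver; difference -0.70, standard error 0.17, adjusted p = 0.0309) and H2-DMb1 (-0.69 and -0.21; difference -0.49, standard error 0.12, adjusted p = 0.0378) were called, 2 of 9 members beside 8.37% of all genes. For both chains of H2-M the eWAT change was thus the lower one. In liver their wild-type means were low, at 3.12 for H2-DMa and 2.11 for H2-DMb1 beside a table median of 3.02. In eWAT these means were 6.27 and 4.06, and how far either chain could fall in liver was not tested. Leaving out 1 mouse lost both calls for 6 of the 8 mice (all 4 wild-type mice and knockout mice 1 and 4). Quantile normalization and a robust prior with a trend lost both calls too. Cd74 lay the other way, with -0.43 in eWAT and -1.12 in liver, a difference of 0.69 that did not pass (adjusted p = 0.174). Against iWAT no member was called, as was 0% of all genes, with adjusted p between 0.694 and 0.9995. At an unadjusted p under 0.05 were 0 of 9 members and 2651 of all 24646 genes. The eWAT and iWAT changes of H2-DMb1 were -0.69 both times, and the 95% confidence interval of their difference was -0.69 to 0.69.

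The members moved together to different degrees from array to array. Each value was taken as a deviation from the mean of its tissue and genotype, and the mean deviation of H2-Aa, H2-Ab1, H2-Eb1 and Cd74 was set against every other gene over 32 arrays, which share their mice and, per tissue, their normalization. H2-DMa (r = 0.81) and H2-DMb1 (0.78) followed these 4 genes more closely than Ciita (0.67), H2-Ob (0.54) and H2-Oa (0.49). The correlations were not repeated without knockout mouse 2, whose deviations enter them in every tissue. In liver the SD of the 4-gene mean was 0.76 in knockout and 0.18 in wild type (n = 4 each). Without the 8 iWAT arrays H2-DMa and H2-DMb1 were both at 0.69, while Ciita was at 0.20, H2-Ob at 0.17 and H2-Oa at -0.20. The members were not filtered by level. H2-Oa lay below the table median in all 4 tissues, and H2-Ob and H2-DMb1 in liver and BAT. How far low levels lower these correlations was not tested. Of 9778 other genes at or above the median in all 4 tables, those most like the 4 genes were Cxcl16 (0.85), Arrb2 (0.85), Neurl3 (0.85), Lyz2 (0.82), Vcam1 (0.82), Fcgr2b (0.81), Il10ra (0.81), Pip4k2a (0.81), Fgd2 (0.80) and Lcp2 (0.80). Without iWAT, Lyz2 (0.82), Fcgr2b (0.78) and Arrb2 (0.78) remained among the first 10, which Dcn (0.85) then led.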

How the data were processed

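RNA from liver, eWAT, iWAT and BAT (100 ng per sample, per the labels) had been hybridized to Affymetrix Mouse Gene 2.1 ST arrays, 32 in all. The authors deposited 1 table of log2 expression values per tissue, already normalized between its arrays and holding 1 value per gene symbol, with several probe sets averaged for 840 genes; the software and the normalization are not given in the sources used here. Entries with a blank name or a name turned into a number, 1 or 2 per table, were left out, which left 24646 genes. Groups came from the genotype, source name and description of each sample.

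Knockout was compared with wild type per tissue with limma 3.58.1 (R 4.3.3), with Benjamini-Hochberg adjustment over all genes and a threshold of 0.05, and single values with two-sided exact permutation tests. Changes in eWAT and another tissue were compared by limma on the difference of each mouse. P-values cover the spread between these mice. The 9 members, the related lists and the rule for the genes named (all members, the called genes of a list or its 2 largest differences, and the 10 genes most like the members) were chosen with earlier results of these data known. The lists were B cells, T cells, dendritic cells, macrophages, Kupffer cells, hepatocytes, adipocytes, brown adipocytes, skeletal muscle, lysosomal processing, class II transcription, interferon gamma to Ciita, costimulation, class I presentation and further class II genes; 1 gene that the rule names is not reported here. Alternatives were quantile normalization, equal array medians, a filter on dim genes, array weights, a robust prior with a trend, the methods' t-test, B cell markers as a covariate, the replicate number as a block and each array left out in turn. The B cell and muscle classes were added after seeing the data. The procedure was tested on simulated data with noise drawn independently for each gene. The simulation thus did not cover shifts shared by many genes of an array, and its criterion for recovered changes was not applied to iWAT. The number of arrays limits the precision. Promoter sequences are those of RefSeq (GRCm38.p6). Figures were drawn with matplotlib 3.10.9.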

Additional observations from a re-analysis of the deposited data

Results flagged for a closer look

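Within single groups of 4 arrays, 5 of 72 group values lay far from the other 3, where chance alone gives about 1 in 20. H2-Ob was low in the liver of knockout mouse 3 (2.101, against 2.42 to 2.46) and high in the eWAT of the same mouse (4.32, against 3.54 to 3.61), and it was low in the eWAT of wild-type mouse 4 (3.37, against 3.52 to 3.55). In iWAT, wild-type mouse 4 was low for H2-Ab1 (8.85, against 10.20 to 10.40) and for H2-Eb1 (7.93, against 9.41 to 9.50).

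The change between genotypes differed between tissues by a test of the difference for 2 members. For H2-DMa the change in eWAT minus that in liver was -0.70. For H2-DMb1 it was -0.49 against liver and -0.86 against BAT. H2-DMb1 lay below the table median in both liver and BAT, and H2-DMa lay near it in liver.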

How the results depend on the processing

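No member was called in liver except when a replicate was left out, where the count ran from 0 to 3. The share of all genes called lower then ran from 0.134% to 0.982%. None was called in iWAT or BAT under any alternative run, beside at most 2.88% and 0.252% of all genes called lower. In eWAT the count was 5 with array weights (beside 13.5% of all genes called lower). It was 0 with the methods' t-test after Benjamini-Hochberg (beside 0.0771%, H2-DMb1 adjusted p = 0.0704). With 1 replicate left out it was 1 to 6, beside 4.33% to 14.2% of all genes called lower. H2-DMb1 in eWAT kept an adjusted p under 0.05 in 14 of 15 alternatives (0.000469 to 0.0704). The differences from liver numbered 0 with quantile normalization, beside 8.44% of all genes called in either direction. They numbered 0 with the trended and robust prior (7.77%) and 0 to 4 with 1 replicate left out (3.72% to 12.7%). Those from BAT numbered 1 to 2 with 1 replicate left out (2.41% to 10.2%). With 1 replicate left out, the member median ran from -0.30 to -0.12 in liver, -0.58 to -0.36 in eWAT, -1.08 to -0.50 in iWAT and -0.19 to 0.14 in BAT.

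With the replicate number as a block, the differences from liver numbered 1 and those from BAT 2, beside 7.69% and 7.09% of all genes. No other count of members changed. Same-numbered wild-type and knockout arrays correlated between -0.06 and 0.11 (liver), 0 and 0.16 (eWAT), -0.39 and 0.67 (iWAT) or 0.01 and 0.22 (BAT), so the numbers were not taken as pairs.

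Of 577 values of single members under an alternative, 11 changed sign. With quantile normalization H2-Oa in eWAT became -0.047 and H2-Eb1 in BAT 0.038, and within the arrays low in B cell markers H2-Oa in iWAT became 0.17. With 1 replicate left out, H2-Oa ran from -0.022 to 0.074 in eWAT and from -0.60 to 0.032 in iWAT, H2-Ab1 in BAT from -0.26 to 0.17 and H2-Eb1 in BAT from -0.20 to 0.15. None of the values that changed sign was called. The cause was not tested. With 4 mice per genotype, differences such as those of H2-Oa cannot be ordered.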

Other observations

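None of the other genes of the pathway or of the dendritic cell list was called in liver, iWAT or BAT. In liver the largest differences included those of Rfxap (-0.45) and Creb1 (-0.41) among genes for class II promoter factors, Jak2 (-0.37) and Ifngr1 (-0.37) from interferon gamma to Ciita, Psmb9 (0.24) and Tap2 (0.16) in class I presentation, and Ccr7 (0.20) among dendritic cell genes. In iWAT they included those of Nfya (-0.75), Ifngr2 (-0.64), Jak1 (-0.55), Cd80 (-1.21), Cd86 (-0.73), Nlrc5 (-0.27) and Flt3 (-0.99), and in BAT they included those of Nfya (-0.33), Rfxank (-0.31), Tap1 (0.35) and Zbtb46 (-0.29). Nfya was thus lower on average in iWAT (adjusted p = 0.221) and BAT (adjusted p = 0.208), without passing the test in either, beside its call in eWAT.

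Among Kupffer cell genes measured in eWAT, Vsig4, a complement receptor that other resident macrophages also express, was called lower (-1.67, adjusted p = 0.00929), while Clec4f, Timd4, Cd5l and Marco were not. No B cell, T cell, hepatocyte, brown adipocyte or skeletal muscle gene was called in eWAT.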
